A study of Mus musculus with 6 samples.

Results

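Naive and memory T cells are kept in a resting, recirculating state by a small set of transcription factors and receptors. Tcf7 (encoding TCF-1) and Lef1 are related HMG box factors of the T cell lineage, Foxo1 and Klf2 drive the genes of quiescence and lymph node recirculation, Bach2 restrains effector programs, and Satb1 organizes chromatin in T cells. Il7r (CD127) carries the survival signal of IL-7, Ccr7 brings cells into lymph nodes along its chemokine ligands, and S1pr1 brings them out again along a gradient of sphingosine 1-phosphate. Activation through the T cell receptor lowers many of these genes, and Foxo1 leaves the nucleus when it is phosphorylated by Akt. Several of them are also used by other cells, Ccr7 by mature dendritic cells and by B cells, Bach2 and Foxo1 by B cells, and S1pr1 and Klf2 by endothelial cells.

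These 9 genes were taken by symbol from the 54532 genes of the deposited count table, and each symbol matched 1 gene. All 9 were among the 14883 genes that passed the filter on low counts. By the study's methods, mouse CD8T cells taken from spleen were stimulated by beads carrying anti-CD3/CD28 antibodies. They were then kept for 24 hr with peritoneal macrophages at a ratio of 1 to 1. The macrophages had received 10 ng/mL IFN-γ for 12 hr. DB2313, which inhibits the transcription factor Spi1 and is given in the methods at 14 nM, had been applied to the macrophages of the DB2313 group (3 samples) and not to those of the control group (3 samples). Both groups therefore share the beads, the IFN-γ and the coculture, and no sample of T cells cultured alone was analysed here. The study's methods name macrophages as the cocultured cells, whereas the sample labels name DC cells, and the labels call the sequenced cells primary T cells without naming CD8. The sources do not state whether the samples of a group came from separate cultures or animals, nor the strain of the cell donors, so the p-values measure only the spread between these samples.

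Between 16611975 and 18596217 reads were counted per library. Each of the 9 members had at least 960 counts in every library, so counting error was small for all of them. The T cell markers Cd3d, Cd3e, Cd3g, Cd247, Cd8a and Cd8b1 were counted in every library. Cd4 was too, at 213.0 ± 2.51 CPM in control and 294.0 ± 4.58 CPM in DB2313 (SD, n = 3 each). Cd8a was at 118.5 ± 3.91 and 171.5 ± 10.2 CPM, and Cd8b1 at 107.4 ± 6.02 and 166.1 ± 2.09 CPM (SD, n = 3 each). CPM takes no account of gene length, so these values do not rank the genes against each other. Which cells the Cd4 counts came from was not tested. A list of 20 T cell genes that holds no member took 0.288% of the counts in each control library and 0.46% to 0.468% in the DB2313 libraries. All 20 rose, by 0.32 to 0.74 on the log2 scale, with a median of 0.59. A list of 20 macrophage genes took 1.33% to 1.36% and 0.535% to 0.545%, with 18 lower and 2 higher, and 12 dendritic cell genes took 0.35% to 0.355% and 0.228% to 0.231%, with 9 of the 11 tested lower. The members were therefore described on 2 scales, as a share of all counts and per count of the 20 T cell genes. In these bulk samples, a change in the share of T cells and a change in RNA per cell, of any cell type, cannot be told apart.

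As a share of all counts, 8 of the 9 members rose in the DB2313 group and Ccr7 fell (edgeR quasi-likelihood test, Benjamini-Hochberg adjusted p below 0.05 over all tested genes). Among all tested genes 45.4% were called at this threshold, 20.8% as higher and 24.6% as lower. Tcf7, S1pr1, Klf2 and Il7r rose by about as much as the T cell genes, Satb1 and Lef1 by somewhat less, and Bach2 and Foxo1 by least. None of the 9 reached an absolute log2 fold change of 1, which 6.67% of the tested genes passed together with the adjusted p. The median log2 fold change was 0.50 over the members and 0.019 over all tested genes. All 9 members had no overlap between control and DB2313 libraries, which held for 53.1% of the tested genes (25.6% with DB2313 higher and 27.5% with DB2313 lower). When the libraries were scaled to the T cell genes instead, no member was higher, 5 were lower (78.6% of the tested genes passed on that scale in either direction, 77.5% as lower), and the sign of Tcf7, Lef1, Il7r, Bach2, Foxo1 and Satb1 turned negative.

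**Figure D1:**
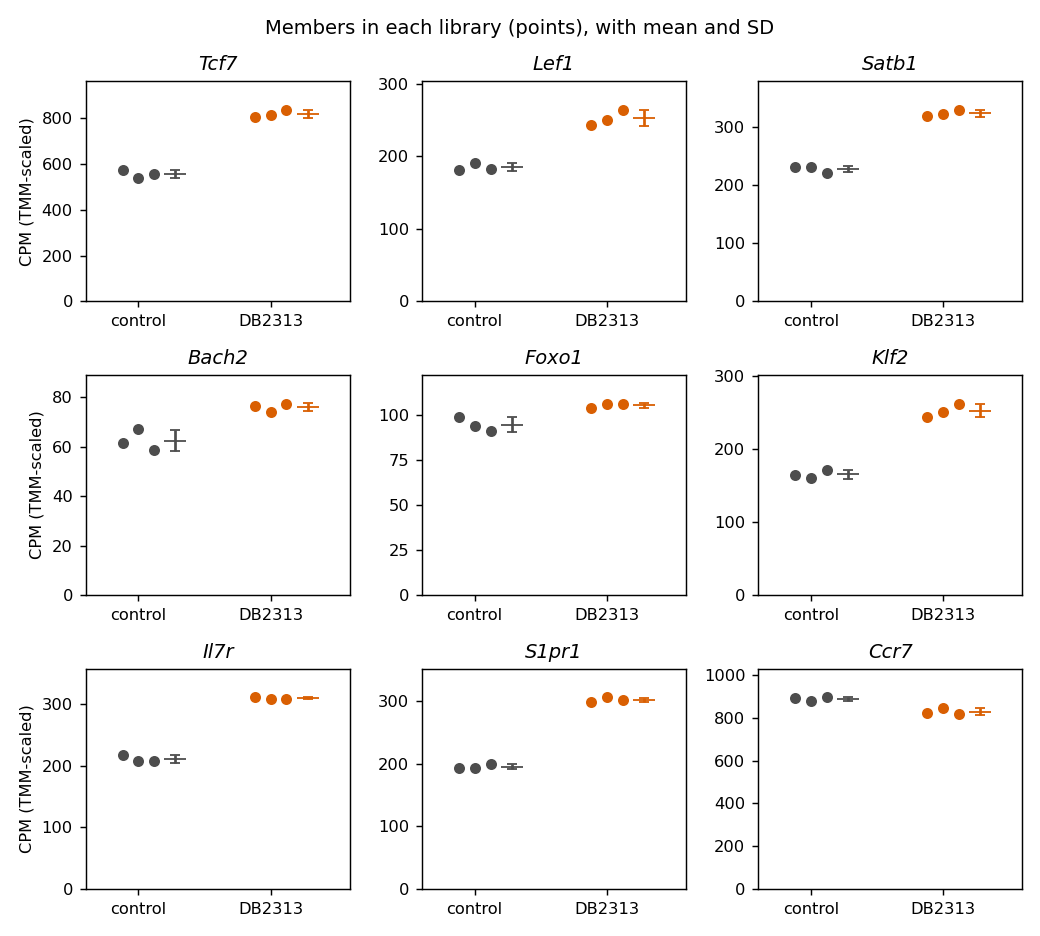
Level of each member in every library, in CPM (counts per 1000000 of the TMM-scaled library size), with points for the 3 libraries of a group and a bar for their mean and SD beside them. In 8 panels every DB2313 library lies above every control library, and in the panel of Ccr7 every DB2313 library lies below.

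Tcf7 (ENSMUSG00000000782) is found at 52252371 to 52283014 of chromosome 11 (GRCm38, minus strand) and encodes the factor TCF-1 that naive and memory T cells keep. It was at 575, 539 and 559 CPM in the control libraries and at 807, 814 and 838 CPM in the DB2313 libraries. All DB2313 libraries lay well above the control libraries, with means of 558 ± 18.5 and 820 ± 16.2 CPM (SD, n = 3 each). The log2 fold change was 0.56 with a standard error of 0.033 (adjusted p = 1.25e-12). Per 1000 counts of the T cell genes, Tcf7 had 194, 181 and 187 counts in the control libraries and 181, 181 and 186 counts in the DB2313 libraries. On that scale the groups overlapped, and the difference was -0.035 (approximate 95% interval -0.099 to 0.030, adjusted p = 0.339).

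Lef1 (ENSMUSG00000027985), on the plus strand of chromosome 3 from 131110471 to 131224356, is the closest relative of Tcf7 in T cells and shares much of its DNA binding. Its levels were 181, 191 and 182 CPM in the control libraries and 244, 250.4 and 264 CPM in the DB2313 libraries. The groups of Lef1 did not overlap, with a log2 fold change of 0.45 (standard error 0.038, adjusted p = 6.57e-10). Per 1000 counts of the T cell genes it went from 60.9, 64.1 and 61.1 to 54.6, 55.8 and 58.6 counts. Each DB2313 library was below each control library on this scale, and the difference was -0.14 (standard error 0.037, adjusted p = 0.00182). The number of Tcf7 counts per Lef1 count averaged 3.02 ± 0.182 without and 3.24 ± 0.0697 with DB2313 (SD, n = 3 each), and the groups overlapped (two-sided exact permutation test, p = 0.2, where 0.1 is the smallest that 3 against 3 allow).

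Satb1 (ENSMUSG00000023927), on the minus strand of chromosome 17 from 51736187 to 51833290, encodes a chromatin organizer that is high in naive T cells. It was at 230.5, 231 and 221 CPM in the control libraries and at 318, 321 and 329 CPM in the DB2313 libraries. The rise was 0.50 on the log2 scale (standard error 0.034, adjusted p = 1.50e-11), with no overlap between the groups. Relative to the T cell genes it was slightly lower, at -0.086 (standard error 0.034, adjusted p = 0.0269). This small difference did not pass the threshold when certain single libraries were left out, at -0.075 without control replicate 1, -0.075 without control replicate 2, -0.078 without DB2313 replicate 1 and -0.082 without DB2313 replicate 2 (adjusted p from 0.0647 to 0.116).

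Klf2 (ENSMUSG00000055148), on the plus strand of chromosome 8 from 72319033 to 72321656, encodes a zinc finger factor that induces S1pr1 in resting T cells. It was counted at 165, 159.8 and 171 CPM in the control libraries and at 245, 250.5 and 262 CPM in the DB2313 libraries. The DB2313 libraries were higher throughout, and the log2 fold change was 0.61 with a standard error of 0.038 (adjusted p = 3.03e-12). Per count of the T cell genes it stood at 0.022 (approximate 95% interval -0.052 to 0.095, adjusted p = 0.602), with overlapping groups.

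S1pr1 (ENSMUSG00000045092), on the minus strand of chromosome 3 from 115710433 to 115715072, encodes the receptor that lets lymphocytes leave lymphoid organs, and had the largest log2 fold change of the members. Its control libraries were at 192, 193 and 199.6 CPM and its DB2313 libraries at 299, 306 and 301 CPM. With means of 195 ± 4.04 and 302 ± 3.43 CPM (SD, n = 3 each), the gap far exceeded the spread within the groups. The log2 fold change was 0.63 with a standard error of 0.034 (adjusted p = 2.13e-13). Per count of the T cell genes S1pr1 stood at 0.041 (approximate 95% interval -0.026 to 0.107, adjusted p = 0.275).

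Il7r (ENSMUSG00000003882), on the minus strand of chromosome 15 from 9505788 to 9530176, encodes the IL-7 receptor chain CD127. Antibodies to CD127 and to KLRG1 were used in the study's flow cytometry. By that method the paper reports no effect of the cocultured macrophages on memory differentiation of the T cells. Flow cytometry reads protein on single cells, whereas the counts here are RNA of bulk samples. Il7r was at 218, 207 and 207 CPM in the control libraries and at 311, 309 and 308 CPM in the DB2313 libraries. The DB2313 libraries lay close together and above all controls. The rise of Il7r was 0.55 (standard error 0.035, adjusted p = 3.20e-12) as a share of all counts. Per count of the T cell genes Il7r stood at -0.036 (approximate 95% interval -0.105 to 0.032, adjusted p = 0.344). Klrg1, a marker of terminal effector cells, was at 2.05 ± 0.342 and 2.32 ± 0.0875 CPM (SD, n = 3 each), a log2 fold change of 0.18 that did not pass the test (standard error 0.26, adjusted p = 0.591).

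Bach2 (ENSMUSG00000040270), on the plus strand of chromosome 4 from 32238804 to 32586108, encodes a repressor that holds back effector genes. Its levels were 61.6, 67.1 and 58.6 CPM in the control libraries and 76.4, 74.1 and 77.5 CPM in the DB2313 libraries. The groups were separate, and the rise was 0.28 (standard error 0.054, adjusted p = 0.000146). Per 1000 counts of the T cell genes it had 20.7, 22.5 and 19.6 counts in the control libraries and 17.1, 16.5 and 17.2 counts in the DB2313 libraries. On this scale all DB2313 libraries were lower, with a difference of -0.31 (standard error 0.055, adjusted p = 2.33e-05).

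Foxo1 (ENSMUSG00000044167), on the plus strand of chromosome 3 from 52268336 to 52353221, encodes a forkhead factor that sustains Il7r, Klf2 and Ccr7 in naive T cells. It was at 98.9, 93.5 and 90.9 CPM in the control libraries and at 103, 106 and 106 CPM in the DB2313 libraries. The groups were narrowly separate, and the log2 fold change of 0.15 was the smallest rise among the members (standard error 0.043, adjusted p = 0.00535). Per 1000 counts of the T cell genes Foxo1 went from 33.3, 31.4 and 30.4 to 23.2, 23.7 and 23.5 counts. This fall of Foxo1 relative to the T cell genes was -0.44 on the log2 scale (standard error 0.044, adjusted p = 4.28e-09).

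Ccr7 (ENSMUSG00000037944), on the minus strand of chromosome 11 from 99144196 to 99155077, encodes the receptor for lymph node entry and was the only member that did not rise. It was counted at 894, 879 and 895 CPM in the control libraries and at 822, 847 and 816 CPM in the DB2313 libraries. All DB2313 libraries were slightly lower, and the log2 fold change was -0.10 with a standard error of 0.030 (adjusted p = 0.00790). This call depended on the scaling, since it was -0.0081 (adjusted p = 0.837) with library size scaling and -0.039 (adjusted p = 0.324) with upper quartile scaling. Per 1000 counts of the T cell genes Ccr7 had 301, 295 and 299.8 counts in the control libraries and 184, 189 and 181 counts in the DB2313 libraries. No other member differed as much on this scale, where Ccr7 was at -0.69 (standard error 0.031, adjusted p = 2.09e-15), a fall of 38.1% in the mean. The number of Ccr7 counts per S1pr1 count averaged 4.56 ± 0.0819 without and 2.74 ± 0.0297 with DB2313 (SD, n = 3 each). The ratio did not overlap between the groups (p = 0.1 by a two-sided exact permutation test, which can go no lower). Fscn1, a gene of mature dendritic cells, was at 593 ± 14.2 and 517 ± 15.3 CPM, and Ccl22, another, at 2190 ± 12.9 and 1188 ± 15.4 CPM (SD, n = 3 each). The part of these cells in the counts of Ccr7 was not tested.

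**Figure D2:**
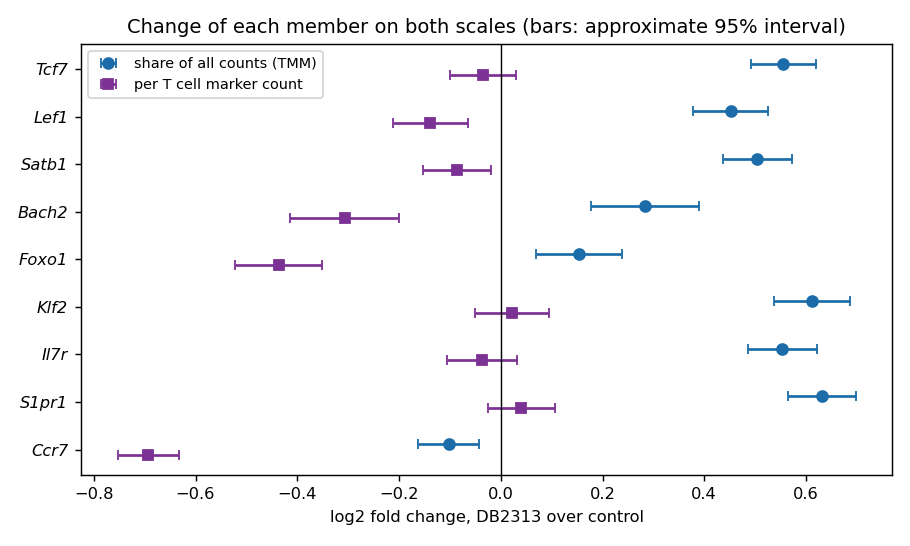
Log2 fold change of each member, DB2313 over control, as a share of all counts (circles) and per count of the 20 T cell genes (squares), with approximate 95% intervals as bars. On the T cell scale Tcf7, Klf2, S1pr1 and Il7r have intervals that include 0, and Ccr7 lies farthest below, at -0.69.

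On the T cell scale, 77.5% of all tested genes were lower in the DB2313 group and 1.11% were higher. The 5 lower members were Ccr7, Foxo1, Bach2, Lef1 and Satb1, a direction that most genes shared. The median on this scale was -0.086 over the members and -0.57 over all tested genes. Among the 20 T cell genes that set the scale, 3 were higher, 5 lower and 12 did not pass. They ranged from -0.27 (Cd3e) to 0.15 (Cd3d). Lef1 (-0.14) and Satb1 (-0.086) lay within that range, and Ccr7, Foxo1 and Bach2 lay below it. Scaling to the 4 genes of the CD3 complex alone (Cd3d, Cd3e, Cd3g and Cd247) put Tcf7 at -0.093 (adjusted p = 0.0180) and Il7r at -0.095 (adjusted p = 0.0194), and 7 members were then lower.

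**Figure D3:**
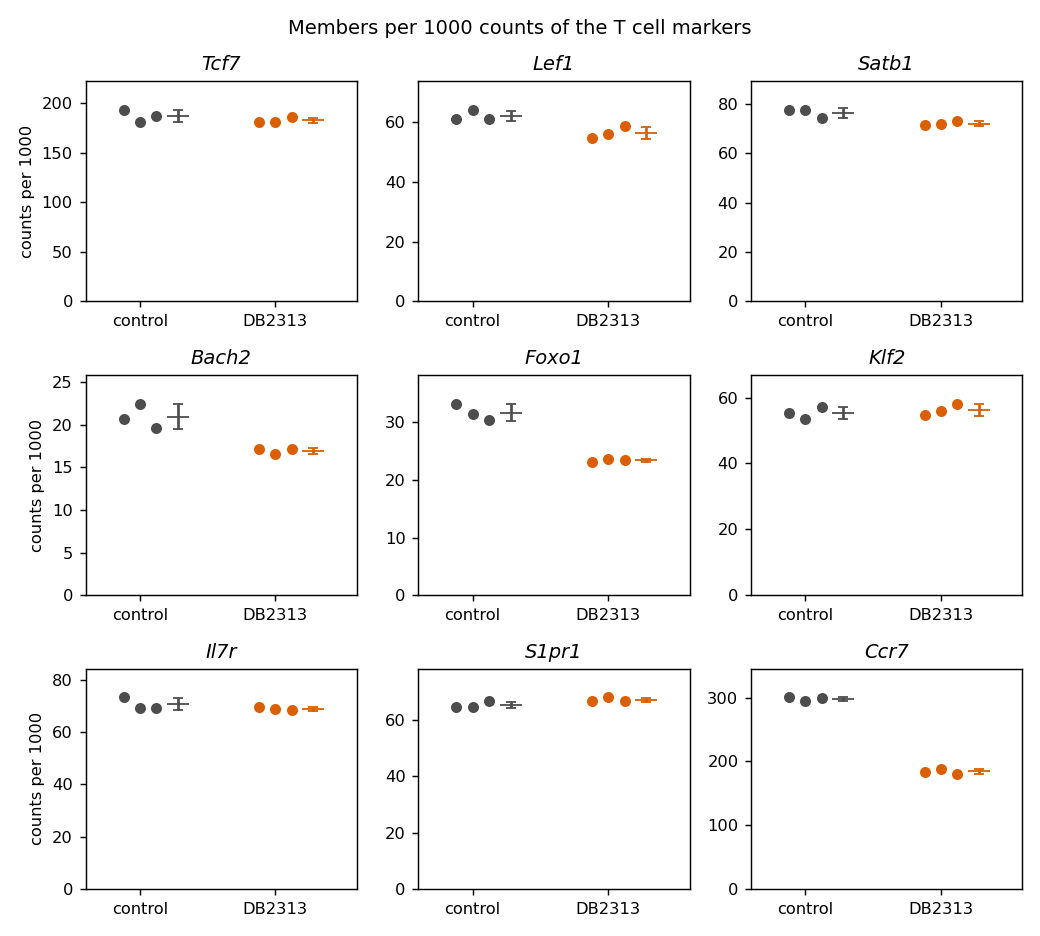
Counts of each member per 1000 counts of the 20 T cell genes, in every library, with the mean and SD of each group. Tcf7, Klf2, Il7r and S1pr1 overlap between the groups, whereas all DB2313 libraries lie below all control libraries for Ccr7, Foxo1, Bach2, Lef1 and Satb1.

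Levels of different genes were compared per length, as RPKM (CPM per kilobase of the gene length in the table). In the control group Ccr7 was highest, at 449.6 ± 4.56 RPKM, followed by Tcf7 at 212 ± 7.04, Klf2 at 89.4 ± 3.06, S1pr1 at 64.0 ± 1.33 and Il7r at 45.2 ± 1.38 RPKM. Lef1 was at 21.03 ± 0.605, Satb1 at 11.96 ± 0.292, Foxo1 at 10.9 ± 0.469 and Bach2 at 6.28 ± 0.431 RPKM (SD, n = 3 for each gene). The order was the same in the DB2313 group, and in both groups each gene's libraries lay above those of the next. Ccr7 and Tcf7 came closer together, at 419 ± 8.45 and 312 ± 6.18 RPKM in the DB2313 group (SD, n = 3 each). The length in the table joins the exons of all transcripts, which lowers the RPKM of genes with long or many transcripts, such as the 19027 bases of Satb1.

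By their deposited coordinates, 15 other genes overlap 5 of the members, and Ccr7, S1pr1, Klf2 and Il7r have none. The largest by count is A630014C17Rik, on the strand opposite to Tcf7, with at most 137 counts in a library. It rose by 0.52 (standard error 0.15, adjusted p = 0.00754), close to Tcf7, and since the strand setting of the counting is not stated, its reads cannot be told apart from those of Tcf7. None of the 15 reached more than 1.36% of the CPM of its member, the largest share being that of Bach2it1 within Bach2.

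The windows before the start sites of the members were searched because 8 of them rose together. Of the 9 members, 7 matched the RefSeq promoter table (GRCm38.p6), with 15 start sites, and Ccr7 and S1pr1 were not matched. In the 250 bases before each start, the FOXO core TGTTTAC and the TCF/LEF core ATCAAAG were found in 0 of the 15 windows on either strand, against 3.17% and 3.21% of all 32851 windows. The KLF type CCNCNCCC, or its complement GGGNGNGG, was found in 12 windows of Foxo1, Klf2, Lef1, Satb1 and Tcf7, and in 45.9% of all windows. Many of these matches overlap each other, and the start sites of a gene share bases. The windows of Bach2 and Il7r, and some of those of Lef1, Tcf7 and Satb1, lie within the gene bounds of the deposited table. Their matches are therefore not all upstream of the gene. The stretches of Klf2 (a member at the level of the T cell genes) and Foxo1 (a member below it) that precede the gene bounds of the deposited table are given with the KLF type matches in capitals, at chr8:72318812-72319032 and chr3:52268087-52268335 of GRCm38.p6, both on the plus strand.
Klf2: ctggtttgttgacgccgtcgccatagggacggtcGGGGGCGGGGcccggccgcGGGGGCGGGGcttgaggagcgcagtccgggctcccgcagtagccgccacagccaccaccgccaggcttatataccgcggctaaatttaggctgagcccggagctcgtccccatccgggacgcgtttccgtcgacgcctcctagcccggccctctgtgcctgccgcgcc
Foxo1: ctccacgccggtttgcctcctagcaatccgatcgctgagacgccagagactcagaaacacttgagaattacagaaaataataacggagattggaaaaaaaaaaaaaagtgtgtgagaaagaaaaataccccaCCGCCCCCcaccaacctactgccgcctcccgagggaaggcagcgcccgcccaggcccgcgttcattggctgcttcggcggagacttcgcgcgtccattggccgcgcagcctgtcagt
The window of Klf2 holds 4 overlapping matches in 2 runs and that of Foxo1 holds 1. A match describes the letters only.

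Other genes that accompany the members in naive and memory T cells moved less evenly. Of 20 such genes, 13 rose, 3 fell and 4 did not pass, with a median log2 fold change of 0.34. Ets1, a factor needed for T cell survival, went from 530 ± 8.92 to 742 ± 13.1 CPM, and Il2rb, the receptor chain for IL-2 and IL-15, from 394 ± 4.34 to 555 ± 19.2 CPM (SD, n = 3 each). Actn1, an actin crosslinker, fell by 0.18 and Rgs10, a regulator of G protein signalling, fell by 0.24 on the log2 scale. On the T cell scale 14 of the 20 were lower and 6 did not pass, where 77.5% of all tested genes were lower.

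Around Il7r, the genes of IL-7 signalling split evenly: of the 10 tested, 4 rose, 4 fell and 2 did not pass, with a median of -0.070. Il2rg, the chain that pairs with Il7r, rose from 253 ± 2.003 to 279 ± 3.65 CPM, and Jak1, a kinase of the receptor, from 497 ± 11.5 to 599 ± 16.7 CPM (SD, n = 3 each). Mcl1, a survival factor downstream of cytokines, fell by 0.13 and Cish, a feedback inhibitor of Stat5, by 0.14. The ligand Il7 was near the detection limit, at 1.53 ± 0.487 and 1.30 ± 0.574 CPM (SD, n = 3 each), and did not pass the test (adjusted p = 0.670). Crlf2, the receptor for TSLP that also pairs with Il7r, fell by 0.28 (standard error 0.047). Il7r counts per Crlf2 count went from 2.09 ± 0.162 to 3.72 ± 0.102 (SD, n = 3 each). This ratio did not overlap between the groups (p = 0.1 by a two-sided exact permutation test, which can go no lower). Which cells the Crlf2 counts came from was not tested.

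Of the 9 tested genes of homing and egress, 1 rose, 5 fell and 3 did not pass, with a median of -0.20. Sgpl1, which degrades sphingosine 1-phosphate, fell by 0.77 and Gnai2, the G protein through which chemokine receptors signal, fell by 0.32. The Ccr7 ligands Ccl19 and Ccl21a each have 2 entries in the deposited table, all listed at 0 in every library. How reads that match several copies were counted is not stated, so the level of both ligands is uncertain.

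Of 13 partners of Tcf7 and Lef1, 5 rose, 3 fell and 5 did not pass. Ctnnb1 (β-catenin), their coactivator, was at 253 ± 5.57 and 262 ± 10.7 CPM (SD, n = 3 each; adjusted p = 0.312). The corepressor Tle3 fell by 0.44 on the log2 scale, the kinase Gsk3b fell by 0.20, and Aes, a short member of the same corepressor family, was at 0.087 (standard error 0.035, adjusted p = 0.0474). Among 11 genes that control Foxo1, 1 rose, 5 fell and 5 did not pass. Pik3ip1, an inhibitor of PI3K in resting T cells, went from 99.3 ± 4.39 to 149.5 ± 6.53 CPM (SD, n = 3 each), while the kinases Akt1 and Sgk1, which phosphorylate Foxo1, fell by 0.16 and 0.93.

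**Figure D4:**
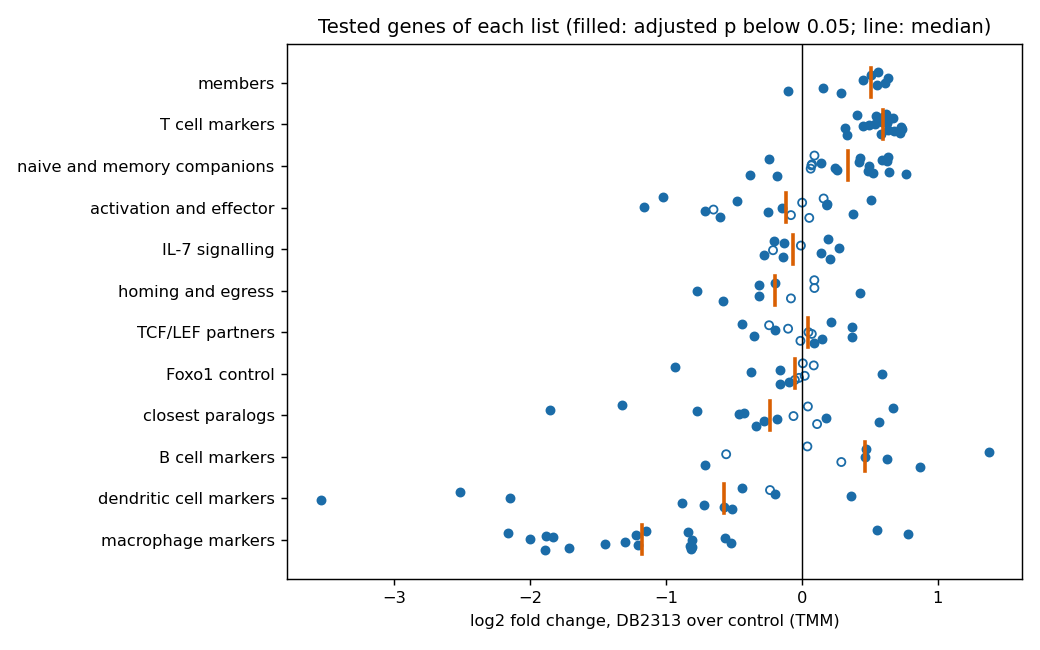
Log2 fold change, DB2313 over control, of the tested genes of each list shown, filled where the adjusted p is below 0.05 and open where it is not, with an orange line at the median of the list. The medians of the members (0.50), the T cell markers (0.59) and the B cell markers (0.465) lie to the right of 0. That of the macrophage markers (-1.18) lies to the left. The member Ccr7 and the macrophage markers Marco and Trem2 lie on the other side of 0 from the median of their list.

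The closest paralogs of the members were mostly lower. Of the 14 tested, 3 rose, 8 fell and 3 did not pass, where 20.8% of all tested genes rose and 24.6% fell. Tcf7l2, a relative of Tcf7, fell from 16.8 ± 2.20 to 6.71 ± 0.705 CPM, S1pr3 from 10.5 ± 1.12 to 2.89 ± 0.691 CPM and S1pr2 from 39.9 ± 1.91 to 23.4 ± 3.64 CPM (SD, n = 3 each). Klf4 and Klf6 fell by 0.46 and 0.43, Bach1 by 0.34 and Foxo3 by 0.19. S1pr4, another sphingosine 1-phosphate receptor, rose by 0.67 (standard error 0.044). S1pr1 counts per S1pr4 count were 1.79 ± 0.042 and 1.75 ± 0.0763 (SD, n = 3 each), with overlapping groups (two-sided exact permutation test, p = 0.6). Ccr9, a chemokine receptor of gut homing T cells, rose by 0.57. Bach2 counts per Bach1 count rose from 0.736 ± 0.0461 to 1.14 ± 0.0352, and Foxo1 counts per Foxo3 count from 0.996 ± 0.0615 to 1.26 ± 0.0342 (SD, n = 3 each). Both ratios were without overlap (p = 0.1 by two-sided exact permutation tests, which can go no lower). Which cells the counts of the paralogs came from was not tested, so these ratios do not describe T cells alone.

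Of 16 genes of T cell activation and effector function, 3 rose, 7 fell and 6 did not pass, with a median of -0.11. Gzmb (granzyme B) rose by 0.37 and Myc by 0.18, whereas Id2, a regulator of effector differentiation that myeloid cells also use, fell by 0.71 and Il2ra, the activation-induced IL-2 receptor chain, fell by 0.15. All of Gzmb, Id2, Il2ra and Myc were lower on the T cell scale, as were 14 of the 16. Of all tested genes 77.5% were lower on that scale, so this count is not particular to the list.

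Of markers of other cells that use some members, 10 B cell genes took 0.00541% to 0.00584% of the control counts and 0.00784% to 0.00817% of the DB2313 counts, with 5 of the 9 tested higher and 1 lower. The 8 endothelial and stromal genes took 0.0119% to 0.0122% and 0.0142% to 0.0147%, with 3 of the 6 tested higher. The 6 genes of NK cells took 0.00518% to 0.0052% and 0.00522% to 0.00552%, with 2 higher and 2 lower. The 9 neutrophil genes took 0.172% to 0.173% and 0.0664% to 0.0682%, with 8 lower and 1 higher, and all 5 progenitor granule genes rose, from 0.0479% to 0.05% up to 0.0997% to 0.101%. Of these lists and those of macrophages and dendritic cells, the only gene without a count was Siglech, which allows at most 3 counts, or 1.81e-05% of the smallest library. This limit takes in counting error alone, because PCR copies of a molecule were not told apart. The part of these cells in the values of the members was not tested.

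The table gives a transcription factor class to 6 of the members and to 883 tested genes, of which 22.2% rose. Of the 31 tested genes of the HMG class, to which Tcf7 and Lef1 belong, 14 rose and 4 fell, and of the 16 forkhead genes, which include Foxo1, 8 rose and 2 fell. Of the 45 bZIP genes, the class of Bach2, 7 rose and 21 fell. Of the 418 zf-C2H2 genes, the class of Klf2, 83 (19.9%) rose and 40 fell. Of the 2 CUT genes, the class of Satb1, 1 rose and 1 fell. These counts include the members.

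Over 9325 other protein-coding genes (mean CPM of 10 or more), those most like each member over the 6 libraries were found by the root mean square difference of centred log2 CPM, a description in which the group difference dominates. Nearest to Tcf7 and to Il7r was Prkcq, a kinase of T cell receptor signalling, at 0.0242 and 0.0126. Thy1 was nearest to S1pr1 (0.0204) and Lrig1 to Klf2 (0.0217). Ipcef1 was nearest to Satb1 (0.0194) and Adgrl1 to Lef1 (0.0164). Ccr7 was nearest to Actr3 (0.0117), a subunit of the actin-nucleating Arp2/3 complex, followed by Bicd2 and Pgk1. Asb13 was nearest to Bach2 (0.0211) and Txndc12 to Foxo1 (0.0107).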

How the data were processed

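RNA-seq libraries of the cocultured T cells were analysed, 3 for each group. The authors deposited raw read counts per gene. The submitters' processing notes name CASAVA 1.8, HISAT2 2.0.5 and featureCounts 1.5.0-p3, whereas the paper's methods name LifeScope, and the genome build, annotation and strand setting are not given in the sources used here. Of 54495 genes shared with GENCODE M21, 98.3% have its GRCm38 coordinates, as do all 9 members. The deposited gene length, in bases, was used for RPKM only.

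Low counts were removed by filterByExpr, which left 14883 genes, libraries were scaled by TMM, and the groups were compared by glmQLFTest of edgeR 4.0.16 (R 4.3.3), with a threshold of 0.05 on the Benjamini-Hochberg adjusted p. Standard errors come from the fitted change and its F statistic, and approximate 95% intervals from the normal distribution. The T cell scale replaced the library sizes by the summed counts of 20 T cell genes. The scripts were tested on simulated counts for this comparison over 14695 genes. There 61 of 99 genes changed by 0.5 and 82 of 95 changed by 1 (log2) were called, with 9 of 14501 unchanged genes called. Far fewer genes were changed there than were called in the data, so these rates do not carry over to the data. The common biological coefficient of variation was 4.67%. Libraries of 1 group differed beyond counting error (2.47 to 3.96 in chi-square per gene), so none was counted as a repeat of another, which does not show separate cultures.

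The members and lists were chosen with earlier results of these data known. Named are all members, the most abundant called genes of each list, and ligands, partners and paralogs; Cd4 was chosen after its values were seen. Alternatives were DESeq2 1.42.0, other scalings, filters, gene classes, a replicate block, leaving out each library and a fold threshold. A gene of the homing list is counted but not reported here by name.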

Additional observations from a re-analysis of the deposited data

How the results depend on the processing

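Under each TMM, library size, upper quartile and DESeq2 scaling, each filter, protein-coding genes alone and DESeq2, 8 members were higher, and Ccr7 lost its call with library size and upper quartile scaling, which left 0 members lower. With a log2 fold change above 1 required, 0 members were higher and 0 lower, relative to the T cell markers too, and 204 genes were higher and 789 lower in place of 3096 and 3667, since this setting tightens the threshold itself. Library size scaling gave 4931 higher and 2852 lower genes, and upper quartile scaling 4319 and 3102.

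Scaled to the T cell markers, 165 genes and 0 members were higher and 11528 genes and 5 members lower, by the construction of the scale. The log2 fold changes that reversed were then -0.035 in Tcf7, -0.14 in Lef1, -0.036 in Il7r, -0.31 in Bach2, -0.44 in Foxo1 and -0.086 in Satb1. Scaled to the CD3 complex, S1pr1 was at -0.018 and Klf2 at -0.037. With each library left out, 2558 to 2894 genes were higher and 3279 to 3516 lower, 8 members were higher and 1 lower, and relative to the T cell markers 0 were higher and 4 to 5 lower. There Klf2 ranged from -0.0033 to 0.0455, and was below 0 without control replicate 2 (-0.0016) or DB2313 replicate 3 (-0.0033). Changes of sign this close to 0 have adjusted p of at least 0.944.

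Libraries with the same replicate number did not deviate together over all tested genes (correlations from -0.0039 to 0.0187). Counting error is part of these deviations, so such values do not exclude a shared culture or animal. With the number as a replicate block, 2912 genes were higher and 3525 lower, 8 members higher and 1 lower, and 4 members lower relative to the T cell markers, where Satb1 lost its call.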
